A study of Oryza sativa Indica Group with 6 samples.

Results

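Genes of antioxidant and thiol redox enzymes were followed through 3 stages of pollen development in rice. They were chosen by name, as genes whose symbol or a synonym in the RefSeq gene table has the form PRX, TRX, GRX, APX, GPX or CAT followed by a digit or letter, the form GST with a class letter and digits, or begins with SOD, ignoring case and an Os prefix. Of the 69 genes with such a name, 58 had a probe set annotated to that gene alone, 85 probe sets in all, out of 17905 genes and 22436 probe sets of this kind on the array. The 58 comprised 18 glutaredoxins, 14 thioredoxins, 7 ascorbate peroxidases, 6 glutathione transferases, 4 type II peroxiredoxins, 4 superoxide dismutases, 2 catalases, 2 class III peroxidases and TRX1. TRX1, also named SDG723, encodes a trithorax-type histone methyltransferase and shares only its letters with the thioredoxins. No name of the form GPX matched. Only PRX74 and PRX112 carried a PRX number, so the large class III family of rice was hardly covered. The 11 genes without such a probe set were GRXC2, GRXC4, GRXC5, GRXC11, GRXC13, GRXC14, OsTrx11, OsTrx16, OsTrx22, OsTrx24 and APX3.

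The samples were male gametophytes of field-grown plants of the variety Guichao No.2 (Oryza sativa Indica Group), with no mutant allele or treatment named in the labels. Uninucleate microspores (UNM) hold a single nucleus, bicellular pollen (BCP) a vegetative and a generative cell, and tricellular pollen (TCP) a vegetative cell and the sperm cells. With 2 biological replicates a stage and an Affymetrix array for each, 6 arrays were compared. How the gametophytes were separated from the anther is not given in the sources used here.

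Reactive oxygen species arise in respiration and photosynthesis and also serve as signals. Superoxide dismutases turn superoxide into hydrogen peroxide, which catalases, ascorbate peroxidases and peroxiredoxins remove, the last 2 with a reducing partner. Thioredoxins and glutaredoxins pass electrons to protein thiols, glutathione transferases join glutathione to other molecules, and class III peroxidases work mostly outside the cell in the wall. In flowering plants, redox control has been tied to anther development and, later, to the respiration and tip growth of pollen.

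Values are the deposited RMA signals per probe set on the log2 scale, given as mean ± SD (n = 2 arrays) or array by array, and differences between stages are on the same scale, with their standard error (SE). Where a gene had several probe sets, the set of highest mean signal over the 6 arrays stood for it. A gene rose or fell where limma gave a Benjamini-Hochberg adjusted p, over all 57194 tested probe sets, under 0.05 and the difference was at least 1. The spread behind each p-value is that of these replicates alone, and the number of arrays limits the precision. Signals of different probe sets are not comparable as amounts of RNA, so only changes between stages are compared. The 95th percentile of the 64 reporter probe sets, for laboratory genes absent from rice, was taken as background. It lay between 5.00 and 5.84 on the 6 arrays.

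Marker genes changed between the stages as well. Of 11 genes of the anther wall, whose tapetum surrounds the microspores, 8 fell and 0 rose from UNM to BCP. From BCP to TCP 1 fell, GAMYB, from 8.37 ± 0.17 to 4.49 ± 0.15, and the median difference of the 11 was 0.21. The log2 of the summed signal of the 11 was 12.66 and 12.70 in UNM, 9.01 and 8.92 in BCP and 7.98 and 7.85 in TCP. For the 5 photosynthesis genes measured it was 11.52 and 11.66, 9.02 and 9.28, and 9.77 on both TCP arrays, and CAB2R, a chlorophyll-binding protein, was the 1 that fell from UNM to BCP. All 5 markers of maturing pollen that were measured, EXPB9, EXPB10, GBSS-I, ADF-9 and OsRac6, rose from UNM to BCP. No gene of the sperm cell markers HAP2, GCS1, GEX1, GEX2 and DUO1 was found by these names. In such bulk samples, fewer cells of a type and less RNA per cell cannot be told apart.

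Across the 3 stages 42 of the 58 genes changed by the moderated F test of limma (72.4%), against 63.4% of all genes with 1 probe set each. Of these 42, 22 had their highest mean in BCP, 17 in UNM and 3 in TCP. The shares were 52.4%, 40.5% and 7.14%, beside 28.7%, 52.6% and 18.6% of all changed genes. Those highest in BCP included 6 of the 7 ascorbate peroxidases and 3 of the 4 peroxiredoxins, while the 3 with the highest mean in TCP were OsTrx20, OsTrx25 and GRXS2. For GRXS2 the TCP arrays did not differ from UNM past the test (0.13, SE 0.18, adjusted p 0.563). Scaled on the hybridization controls, 1 gene was highest in TCP, 24 in BCP and 31 in UNM, shares of 1.79%, 42.9% and 55.4% beside 4.5%, 27.5% and 68.0% of all changed genes. Of the 58 genes, 34 were above the reporter level on all 6 arrays (37.9% of all genes) and 5 on none (22.2% of all genes).

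**Figure D1:**
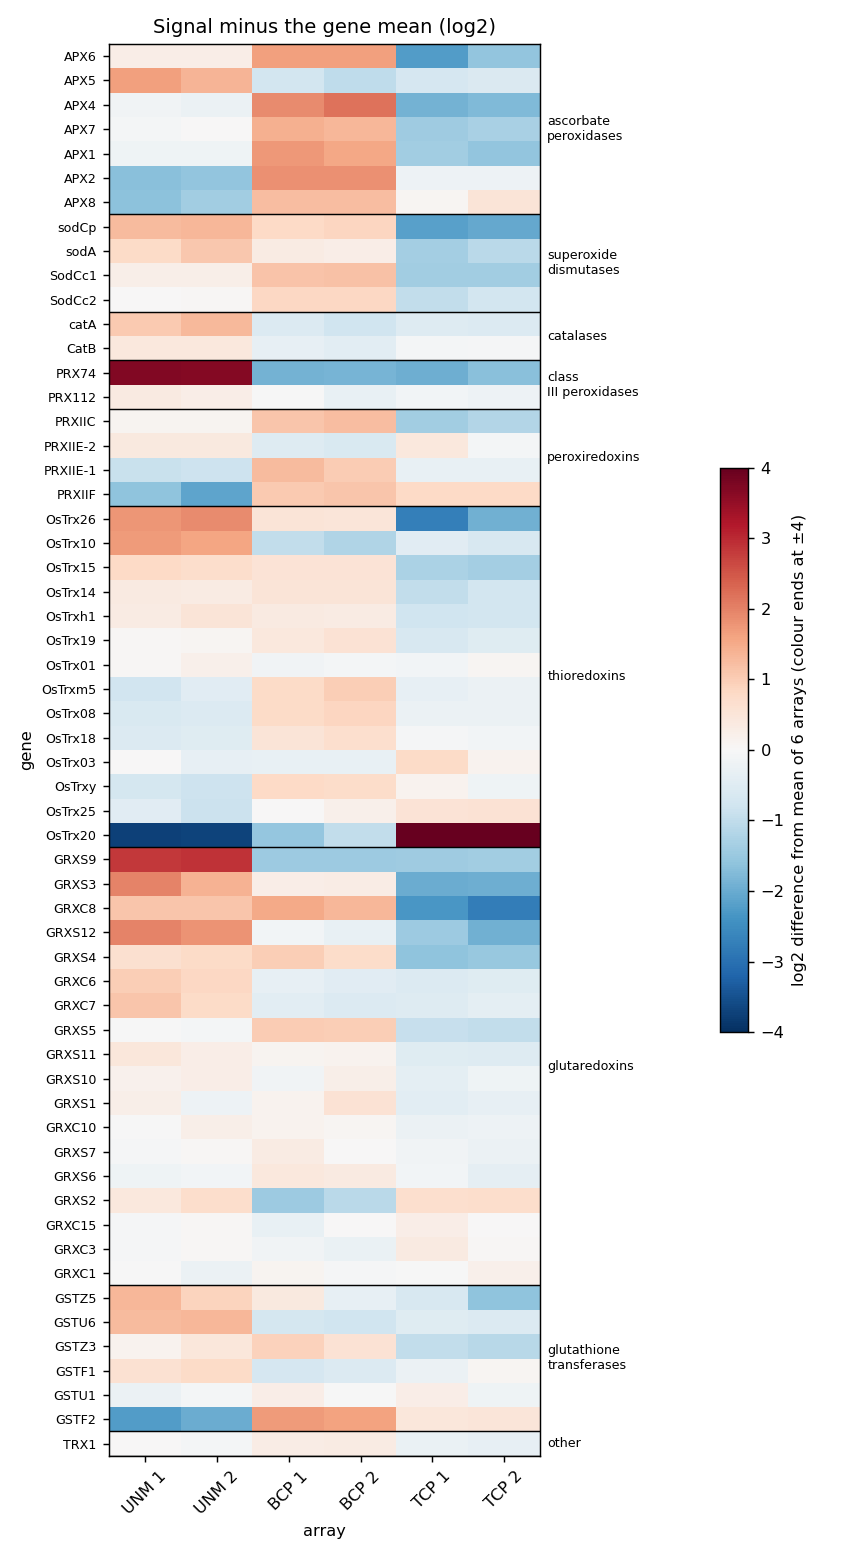
Heat map of the 58 genes (rows, grouped by family) on the 6 arrays (columns), with colour for the log2 signal minus the gene's mean over the arrays. Most ascorbate peroxidases are red in the BCP columns, all superoxide dismutases are blue in the TCP columns, and OsTrx20 runs from dark blue in UNM to dark red in TCP.

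From UNM to BCP 16 of the 58 genes rose and 13 fell, or 27.6% and 22.4%, where 17.1% of all genes rose and 25.1% fell. After scaling by the hybridization controls the split turned, with 13 rises and 16 falls, and the shares of all genes under it were not counted. The largest rises were those of GSTF2, APX2, PRXIIF, APX8, OsTrx20, APX4, PRXIIE-1 and APX1, that of OsTrx20 between stages both under the reporter level. The largest falls were those of PRX74, GRXS9, OsTrx10, APX5, GRXS12, GSTU6, catA and GRXS2. In 7 of the 13 falls the BCP arrays were not both above the reporter level, so the size of those falls is limited by background. The falls went with the drop of the anther wall markers given above, whose part in them was not tested. The median difference of the 58 genes was 0.15, against -0.12 over all genes, or -0.11 against -0.38 after the scaling by these controls.

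From BCP to TCP 2 genes rose and 26 fell, or 3.45% and 44.8%, where 8.52% of all genes rose and 28.6% fell. The median was -0.70, against -0.06 over all genes. It was -0.38 against -0.07 after a repeated quantile normalization, and -1.93 against -1.29 with the arrays scaled on the hybridization controls. The 2 rises were OsTrx20 and GRXS2. Without TCP replicate 2 there were 4 rises, the others being OsTrx03 (1.06) and PRXIIE-2 (1.0). The largest falls in signal, of which APX4 ended under the reporter level on both TCP arrays and APX6 and OsTrx26 on 1, were those of GRXC8, APX4, APX6, APX1, sodCp, OsTrx26, APX7 and SodCc1. In 8 of the 26 falls the TCP arrays were not both above the reporter level. The hybridization controls, which detect transcripts added before hybridization, had means of 7.81 and 7.64 in BCP and of 9.0 and 8.91 in TCP. Scaling by them moved the median difference of all probe sets from 0.14 to -1.09, and 46 genes then fell and 1 rose. The median of all genes, -1.29, was then itself beyond the minimum of 1, and the share of them that fell was not counted. The distance between the median of the 58 genes and that of all genes was -0.64 on the deposited values and -0.31 after a repeated quantile normalization.

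Over the whole period, from UNM to TCP, 6 genes rose and 26 fell, or 10.3% and 44.8%, where 14.4% of all genes rose and 37.7% fell. In 12 of the 26 falls the TCP arrays were not both above the reporter level, which limits their size. The 6 rises were OsTrx20, PRXIIF, GSTF2, APX8, APX2 and OsTrx25. With the arrays set level on the hybridization controls, the median of all probe sets moved from 0.20 to -1.3. Then 3 genes rose and 49 fell, and the differences of APX2 and OsTrx25 became -0.08 and -0.29. The median of all genes was -1.84 under this scaling, and the share of them that fell was not counted.

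**Figure D2:**
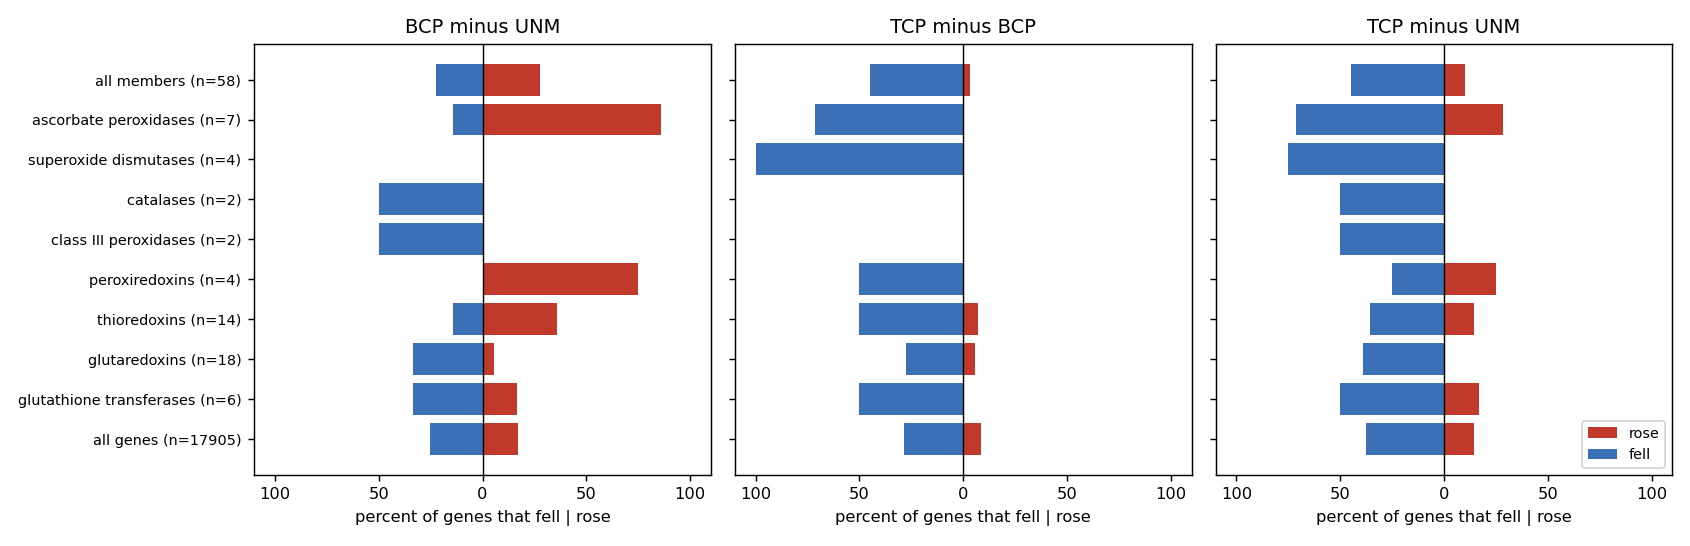
Percent of the measured genes of each family that rose (red, to the right) or fell (blue, to the left) in each comparison, with all 58 members at the top and all 17905 genes at the bottom. Family sizes stand in brackets. From UNM to BCP 6 of 7 ascorbate peroxidases rose, and from BCP to TCP all 4 superoxide dismutases fell.

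The superoxide dismutases, which act first on superoxide, did not reach the minimum difference of 1 from UNM to BCP. Their adjusted p ran from 0.0006 to 0.0238 in that step. All 4 fell from BCP to TCP, with a median difference of -2.12, where 28.6% of all genes fell. SodCc1, a copper-zinc enzyme of the cytosol (gene 4332846), had signals of 10.80 on both UNM arrays, 11.72 and 11.74 in BCP and 9.17 and 9.18 in TCP. Its TCP arrays were thus below all others, and it fell by 2.56 (SE 0.12, adjusted p 4.04e-06), or 5.89-fold, from BCP to TCP. The second cytosolic gene, SodCc2 (gene 4344210), had 10.41 and 10.44, 11.23 on both BCP arrays, and 9.41 and 9.67. It fell from BCP to TCP by 1.69 (SE 0.14), its difference from UNM to BCP being 0.80. The plastid enzyme sodCp (gene 4346329) had 10.06 and 10.13 in UNM, 9.61 and 9.65 in BCP and 6.62 and 6.76 in TCP. Its fall of 2.94 (SE 0.12) from BCP to TCP was the largest of the 4, and from UNM to TCP it fell by 3.41 (SE 0.12).

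The manganese enzyme of mitochondria, sodA (gene 4338417), went from 9.81 ± 0.23 in UNM over 9.18 ± 0.04 in BCP to 7.68 ± 0.20 in TCP, a difference of -1.50 (SE 0.16) in the last step. This value came from a probe set that other transcripts share. The other 2 probe sets of sodA stayed under 4.7 on every array and had differences of 0.40 and 0.34, and a repeated quantile normalization reduced the difference of the shared set to -0.78, which does not reach the minimum of 1. From UNM to BCP the differences of SodCc1 and SodCc2 were 0.93 and 0.80, and those of sodCp and sodA -0.47 and -0.63, none reaching 1. After centring on the 75th percentile SodCc1 did, at 1.10.

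Ascorbate peroxidases use ascorbate to remove hydrogen peroxide, with enzymes in the cytosol, peroxisomes, chloroplasts and mitochondria. All 7 measured genes changed from UNM to BCP, 6 upward and 1 downward, with a median difference of 1.82. Of all genes 17.1% rose and 25.1% fell in this step. The counts of the 7 were the same under each of the 3 other scalings. APX2 (gene 4344397), a cytosolic enzyme, had signals of 9.69 and 9.78 in UNM, 13.16 and 13.17 in BCP and 11.13 and 11.15 in TCP. It thus rose by 3.43 (SE 0.12, adjusted p 1.22e-06), or 10.8-fold, and then fell by 2.02 (SE 0.12), its TCP arrays remaining above both UNM arrays. The other cytosolic gene, APX1 (gene 4332474), had 10.05 and 10.07, 11.98 and 11.79, and 8.85 and 8.67. Its rise was 1.82 (SE 0.14), and its fall of 3.12 (SE 0.14), or 8.72-fold, took the TCP arrays below those of UNM. From UNM to TCP, APX1 fell by 1.3 and APX2 rose by 1.41 (SE 0.12), the first call being lost after a repeated quantile normalization (-0.90) or centring on the 75th percentile (-0.94).

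APX4 (gene 4346247), a peroxisomal enzyme, had 6.77 and 6.69 in UNM, 8.80 and 9.09 in BCP and 5.02 and 5.17 in TCP. Its TCP signals lay under the reporter level, so that the fall of 3.85 (SE 0.15) is limited by background. Of the plastid enzymes, APX7 of the stroma rose from 9.57 ± 0.06 to 10.97 ± 0.08 and fell to 8.23 ± 0.10, and APX8 of the thylakoid membrane rose from 6.05 ± 0.19 to 8.80 ± 0.00. APX8 was at 7.86 ± 0.31 in TCP, a difference from BCP of -0.94 (SE 0.18) that did not reach 1, or -1.16 without TCP replicate 2, which passed. From UNM to TCP, APX8 rose by 1.81 (SE 0.18), or by 0.31 after scaling by the hybridization controls, which did not pass, and APX7 fell by 1.34 (SE 0.13), a call lost after a repeated quantile normalization (-0.77) or centring on the 75th percentile (-0.98).

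APX5 and APX6, of the organellar branch of the family, lie next to each other with no gene between them in the RefSeq gene table (assembly ASM3414082v1). APX6 (gene 4351663) had 8.17 and 8.15 in UNM, 9.55 and 9.54 in BCP and 5.68 and 6.31 in TCP, and APX5 (gene 4351664) had 8.94 and 8.66, 6.56 and 6.28, and 6.61 and 6.73. From UNM to BCP, APX6 rose by 1.39 (SE 0.21) and APX5 fell by 2.38 (SE 0.16). From BCP to TCP, APX6 fell by 3.55 (SE 0.21) and APX5 had a difference of 0.25 (SE 0.16). The difference between these neighbours was not tested. Of the 7 genes, APX5 alone had its highest mean in UNM.

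The catalases remove hydrogen peroxide without a reducing partner, chiefly in peroxisomes. CatB (gene 4342124) had signals of 11.92 on both UNM arrays, 11.16 and 11.08 in BCP and 11.41 and 11.45 in TCP. Its differences of -0.80 (SE 0.12) from UNM to BCP and 0.31 (SE 0.12) from BCP to TCP did not reach 1. Of its 4 other probe sets 2 fell from UNM to BCP, with differences of -1.03 and -1.10, so the size of this step lay near the minimum of 1. catA (gene 4328073) fell from 6.29 ± 0.17 to 4.45 ± 0.19 from UNM to BCP (-1.84, SE 0.15), under the reporter level. One of its 2 other probe sets fell too (-1.50, SE 0.25). The remaining set, the one not shared with other transcripts, stayed under 4 on all arrays with a difference of 0.53.

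PRX74 (gene 4339222), a class III peroxidase, had signals of 8.79 and 8.76 in UNM, 3.20 and 3.22 in BCP and 3.12 and 3.41 in TCP. It fell by 5.57 (SE 0.14, adjusted p 3.77e-07), or 47.4-fold, from UNM to BCP, and both later stages lay under the reporter level. The anther wall markers C6 and C4 had differences of -6.73 and -6.34 in the same step, the largest falls of the 11 markers, whose median was -2.4. Whether PRX74 transcripts came from the gametophyte was not tested. PRX112 had a difference of -0.48 (SE 0.14), while its second probe set fell by 1.75 (SE 0.19) from 4.96 ± 0.34.

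**Figure D3:**
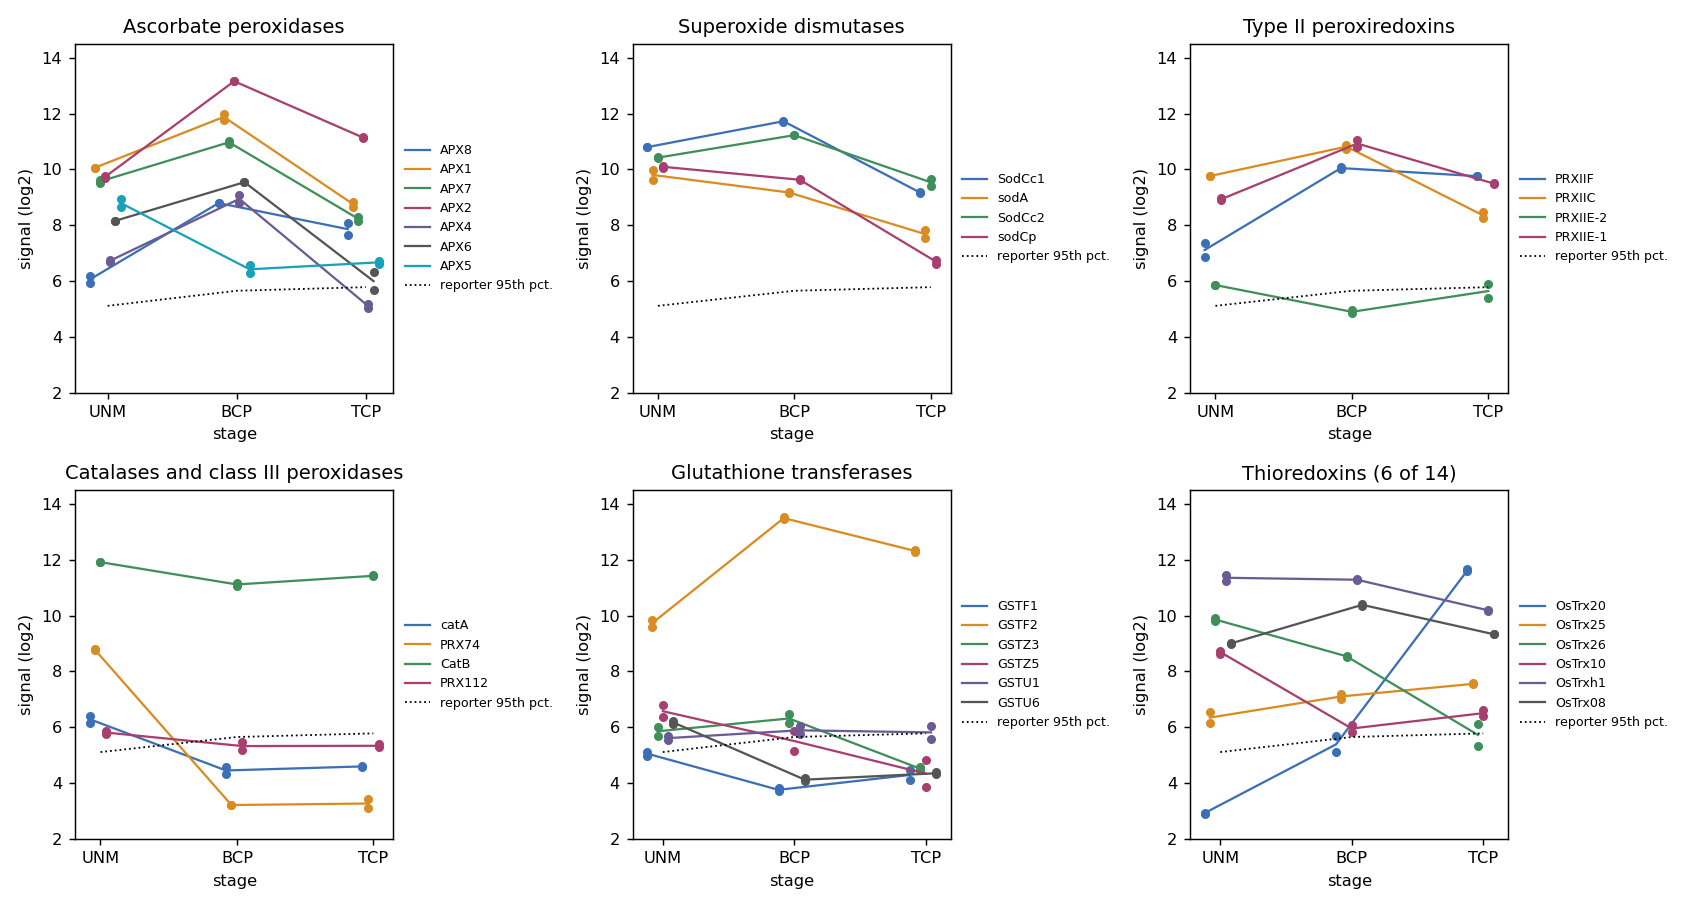
Log2 signal by stage for the families of antioxidant enzymes and for 6 of the 14 thioredoxins, with a point for each array, a line through the stage means and a dotted line for the mean 95th percentile of the reporter probe sets. APX2 and GSTF2 peak in BCP above 13, PRX74 drops from 8.8 to the background range, and OsTrx20 climbs from 2.9 to 11.6.

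Peroxiredoxins reduce peroxides through a cysteine that is then restored by thioredoxins or glutaredoxins. Of 4 type II genes 3 rose from UNM to BCP and 0 fell, where 17.1% of all genes rose and 25.1% fell. PRXIIF (gene 4324376), whose Arabidopsis counterpart is mitochondrial, had 7.36 and 6.86 in UNM, 10.01 and 10.09 in BCP and 9.76 on both TCP arrays. It rose by 2.94 (SE 0.18, adjusted p 1.53e-05), or 7.66-fold, and its difference from BCP to TCP was -0.29 (SE 0.18). PRXIIE-1 (gene 4341570), whose Arabidopsis counterpart is in the plastid, had 8.90 and 8.96, 11.06 and 10.80, and 9.49 and 9.50, rising by 2.00 (SE 0.14) and falling by 1.43 (SE 0.14). PRXIIC, of the cytosolic type, rose by 1.06 (SE 0.14) to 10.82 ± 0.10, a call lost without BCP replicate 2 (0.99) or after scaling by the hybridization controls (0.80), and fell by 2.46 (SE 0.14) to 8.36 ± 0.16. PRXIIE-2 had differences of -0.96 and 0.74, at signals near the reporter level.

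Of the 14 thioredoxins 5 rose and 2 fell from UNM to BCP, 1 rose and 7 fell from BCP to TCP, and 2 rose and 5 fell over the whole period. The shares over the whole period, 14.3% rising and 35.7% falling, were near those of all genes, 14.4% and 37.7%. In the first step 35.7% rose and 14.3% fell, where 17.1% of all genes rose and 25.1% fell. From BCP to TCP 7.14% rose, near the 8.52% of all genes, while 7 of 14 fell, above the 28.6% of all genes. The 7 falls of the middle comparison became 3 after a repeated quantile normalization and also after centring on the 75th percentile. The h type, which includes the thioredoxins of the cytosol, held the largest rise of each comparison among them. OsTrx20 (gene 4339117), also named OsTrxh5, had signals of 2.90 and 2.94 in UNM, 5.10 and 5.67 in BCP and 11.66 and 11.59 in TCP. The TCP arrays stood far above all others, and those of UNM and BCP lay under the reporter level. OsTrx20 rose by 6.24 (SE 0.19, adjusted p 9.98e-07) from BCP to TCP and by 8.70 (SE 0.19, adjusted p 9.54e-08) from UNM to TCP. On the scale of the deposited signals these are 75.5-fold and 417-fold, sizes that background at the earlier stages limits. A second probe set of OsTrx20 stayed between 2.97 and 3.58 on all 6 arrays, so the rise rests on 1 probe set.

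OsTrx10, another h type gene, fell from 8.70 ± 0.07 in UNM to 5.95 ± 0.17 in BCP (-2.74, SE 0.15) and was at 6.51 ± 0.15 in TCP. OsTrxh1, also named RPP13-1, a thioredoxin first known from the phloem sap of rice, had 11.26 and 11.46 in UNM, 11.31 and 11.27 in BCP and 10.16 and 10.22 in TCP. Its fall of 1.10 (SE 0.13) in the last step was -0.95 after a repeated quantile normalization and -0.91 after centring on the 75th percentile. The remaining h type genes were OsTrx18, which rose by 1.12 from UNM to BCP on a shared probe set, and OsTrx01, under the reporter level on all arrays.

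Among thioredoxins of plastids, 2 of 3 m type genes rose from UNM to BCP and all 3 fell from BCP to TCP. OsTrx08 had 8.98 and 9.03 in UNM, rose to 10.39 ± 0.06 and fell to 9.34 ± 0.01, a fall of 1.06 (SE 0.12) that was -0.66 after a repeated quantile normalization. OsTrx14 had a difference of 0.18 and then fell by 1.37, and OsTrxm5 rose by 1.49 and fell by 1.16 between levels near background. OsTrxy, of the y type, rose by 1.52 (SE 0.15), and OsTrx03, of the f type, was under the reporter level on all arrays.

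The remaining 4 thioredoxins, grouped here as of other types, went different ways. OsTrx26, a thioredoxin with TPR repeats also named OsTDX, had 9.80 and 9.93 in UNM, 8.57 and 8.52 in BCP and 5.32 and 6.13 in TCP. It fell in both steps, by 1.32 (SE 0.25) and by 2.82 (SE 0.25), and by 4.13 (SE 0.25), or 17.6-fold, over the whole period. OsTrx15, also named OsCXXS1, kept 9.10 ± 0.07 and 8.90 ± 0.00 in UNM and BCP and fell to 7.02 ± 0.07 in TCP. OsTrx19 fell by 1.05 in the last step. OsTrx25, also named OsCiTrx, was at 6.35 ± 0.28, 7.10 ± 0.12 and 7.55 ± 0.02, a rise of 1.20 (SE 0.16) from UNM to TCP that became -0.29 after scaling by the hybridization controls.

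Glutaredoxins reduce disulfides with glutathione, and their names carry S for the monothiol form or C for the others. Of 18 genes 1 rose and 6 fell from UNM to BCP, 1 rose and 5 fell from BCP to TCP, and 0 rose and 7 fell over the whole period. In the first step 5.56% rose and 33.3% fell, where 17.1% of all genes rose and 25.1% fell. The falls of the last 2 comparisons, 27.8% and 38.9%, were near the shares of all genes given above, 28.6% and 37.7%. The rises there were 5.56% and 0.0%, where 8.52% and 14.4% of all genes rose. The median differences were -0.17, -0.34 and -0.68, against -0.12, -0.06 and -0.34 over all genes. GRXS9 (gene 9269297) had 7.02 and 7.07 in UNM, 2.73 and 2.72 in BCP and 2.76 and 2.79 in TCP. It fell by 4.32 (SE 0.12, adjusted p 5.03e-07), or 20.0-fold, to signals under the reporter level. GRXS3 had 8.0 and 7.40, 6.27 and 6.30, and 4.02 and 4.04, and fell by 1.41 (SE 0.20) and then fell by 2.26 (SE 0.20), to under the reporter level. GRXS12 went from 6.75 ± 0.12 over 4.65 ± 0.14 to 3.17 ± 0.31, with both later stages under the reporter level.

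GRXC8 (gene 4341733) had 9.73 and 9.72 in UNM, 10.11 and 9.95 in BCP and 6.29 and 5.84 in TCP. It fell by 3.96 (SE 0.17, adjusted p 3.41e-06), or 15.6-fold, from BCP to TCP. On TCP replicate 2 its signal and the reporter level were both 5.84 after rounding, and on replicate 1 they were 6.29 and 5.72. Background may thus limit the size of this fall too. GRXS4 fell by 2.43 (SE 0.14) in the same step, and its second probe set by 3.84 (SE 0.17). GRXS5 was at 10.31 ± 0.05, 11.33 ± 0.02 and 9.40 ± 0.05, a rise of 1.03 (SE 0.12) and a fall of 1.94 (SE 0.12). The rise no longer passed without UNM replicate 2 (0.99) or with the arrays scaled on the hybridization controls (0.77). GRXC6 fell from 11.43 ± 0.10 to 10.15 ± 0.09 from UNM to BCP and stayed at 10.01 ± 0.03.

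GRXS2 (gene 4327316), measured by a shared probe set, had 8.94 and 9.22 in UNM, 7.06 and 7.45 in BCP and 9.19 and 9.23 in TCP. Its BCP arrays lay below all others, with a fall of 1.82 (SE 0.18) and then a rise of 1.95 (SE 0.18). Scaled on the hybridization controls, the rise was 0.72 and did not pass. The 2 probe sets of GRXS11 disagreed. The one with the higher signal had a difference of -0.63 (SE 0.13) from BCP to TCP, whereas the other rose by 2.24 (SE 0.12) from 7.11 ± 0.06 to 9.35 ± 0.02. GRXC3, also named ROXY2 after Arabidopsis glutaredoxins of anther development, was under the reporter level on all 6 arrays, as were GRXC1 and GRXC15.

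Glutathione transferases of the phi, tau and zeta classes were measured by 6 genes. GSTF2 (gene 4326887), of the plant-specific phi class, had 9.61 and 9.86 in UNM, 13.55 and 13.45 in BCP and 12.29 and 12.35 in TCP. It rose by 3.77 (SE 0.14, adjusted p 1.52e-06), or 13.6-fold, the largest rise among the 58 genes from UNM to BCP, and fell by 1.19 (SE 0.14) in the next step, or by 0.99 after centring on the 75th percentile. The other phi gene, GSTF1, fell by 1.3 (SE 0.16) from UNM to BCP at levels around and under the reporter level. GSTU6, of the tau class, fell from 6.17 ± 0.06 to 4.12 ± 0.07, while its second probe set stayed under 4, and GSTU1 had differences between -0.08 and 0.28.

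The zeta enzymes also act in tyrosine breakdown. GSTZ3 fell by 1.81 (SE 0.17) from BCP to TCP on a shared probe set, and its other set, near 3 on all arrays, had a difference of -0.27. GSTZ5 had the widest spread of the 58 genes in BCP and TCP, with 5.86 and 5.15 in BCP and 4.83 and 3.85 in TCP. Its difference from BCP to TCP, -1.16 (SE 0.37, adjusted p 0.0428), no longer passed without UNM replicate 1 (-1.16, adjusted p 0.0692), without UNM replicate 2 (-1.16, adjusted p 0.0692), without BCP replicate 1 (-0.81), without TCP replicate 2 (-0.68) or after centring on the 75th percentile (-0.97). From UNM to BCP it had a difference of -1.07 (SE 0.37) with adjusted p 0.0625, which became 0.00357 with the replicate number as a block.

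**Figure D4:**
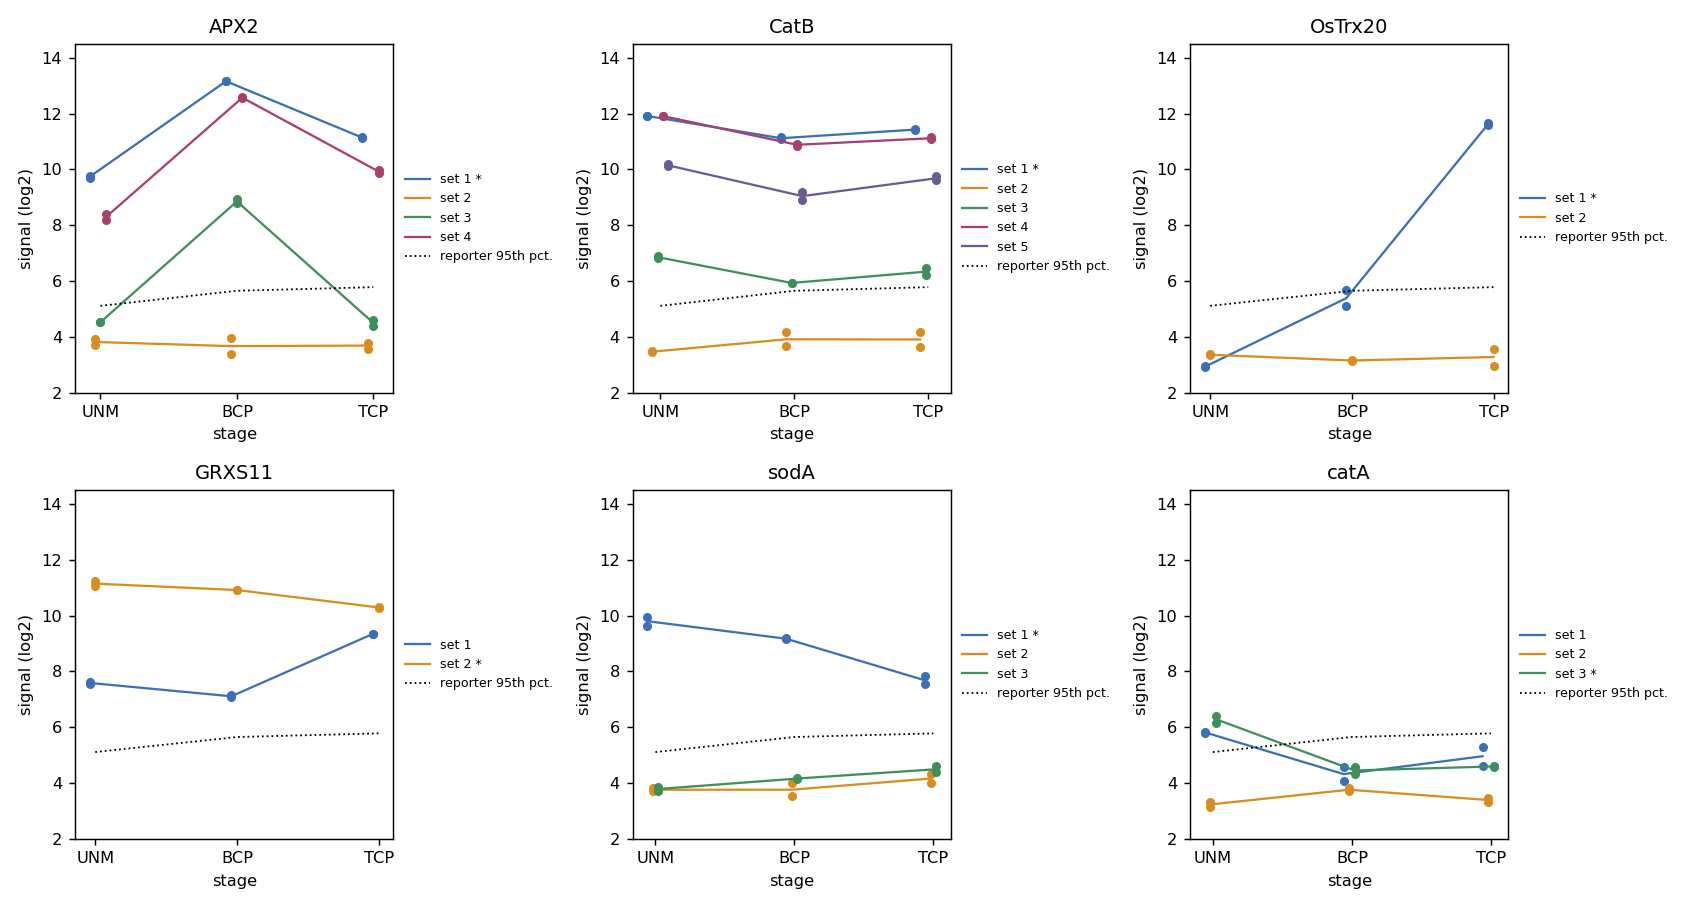
Log2 signal by stage for all probe sets of 6 genes with several, with a point for each array, a line through the stage means and a dotted line for the mean 95th percentile of the reporters. An asterisk marks the set that represents the gene. Of the 4 sets of APX2, 3 rise to BCP, whereas OsTrx20 rises on 1 of its 2 sets and the 2 sets of GRXS11 part after BCP.

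For 16 of the 58 genes several probe sets were measured, which gave 24 calls by the representing set. In 14 of these no other probe set of the gene gave the same call, and in 0 another set gave the opposite one. The representing set was shared with other transcripts for 10 genes. APX2 was borne out by more than 1 set from UNM to BCP, since its other sets had differences of 4.33, 4.28 and -0.15, the last at signals under 4. From UNM to TCP the same sets had differences of -0.02, 1.63 and -0.12. Only 1 of the 3 thus gave the call of the representing set, and that set is shared. The set with -0.02 was under the reporter level at both of these stages. Of the 2 other sets of PRXIIC, 1 gave the same call in all 3 comparisons.

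Genes that supply or recycle the reducing partners were taken from lists by symbol. Of 7 measured genes of glutathione and ascorbate 5 rose and 1 fell from UNM to BCP, and 0 rose and 4 fell from BCP to TCP. That is 71.4% rising in the first step and 57.1% falling in the next, where 17.1% of all genes rose and 28.6% fell. GR, a glutathione reductase, rose from 9.66 ± 0.10 to 11.12 ± 0.02 and fell to 9.33 ± 0.06. The glutamate-cysteine ligase gene gcs rose by 1.46 (SE 0.17) and fell by 1.08 (SE 0.17). Of the monodehydroascorbate reductases, MDAR5 rose by 1.97 (SE 0.12) and fell by 1.41 (SE 0.12). MDAR2 fell by 2.09 (SE 0.19) in the first step, to under the reporter level. GME-1 and GLDH1, of ascorbate synthesis, rose by 2.77 (SE 0.14) and 2.44 (SE 0.18), and GLDH1 then fell by 3.44 (SE 0.18).

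Of 22 thiol reductases and repair enzymes 8 rose and 2 fell from UNM to BCP, and 0 rose and 14 fell from BCP to TCP, 8 of the 14 being protein disulfide isomerases. The shares were 36.4% rising and 9.09% falling, then 63.6% falling, where of all genes 17.1% rose and 25.1% fell, then 28.6% fell. NTRB, an NADPH-dependent thioredoxin reductase, rose from 9.74 ± 0.09 to 11.70 ± 0.05 and had a difference of -0.99 (SE 0.12) in the next step, just short of the minimum. FTR-B, of the ferredoxin-dependent thioredoxin reductase, rose by 1.55 and fell by 1.83. The plastid 2-Cys peroxiredoxin gene bas1 fell by 2.63 (SE 0.13) from BCP to TCP. The methionine sulfoxide reductase genes MSRB3 and MSRA5 rose by 3.23 (SE 0.12) and 1.83 (SE 0.13) from UNM to BCP, and MSRA5 was at 11.33 ± 0.06 in TCP. OsPDIL1-1, a protein disulfide isomerase of the endoplasmic reticulum, fell in both steps, from 12.73 ± 0.05 over 10.64 ± 0.03 to 4.63 ± 0.06, under the reporter level.

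Of 6 enzymes that produce peroxide or consume electrons from respiration, 2 rose and 3 fell from UNM to BCP, and 1 rose and 2 fell from BCP to TCP. In the first step 33.3% rose and 3 of the 6 fell, where 17.1% of all genes rose and 25.1% fell. In the second step 16.7% rose, where 8.52% of all genes rose. With 6 genes, the 33.3% that fell in the second step were near the 28.6% of all genes. OsrbohB, an NADPH oxidase, fell by 3.03 (SE 0.28) in the first step, to under the reporter level. The alternative oxidase gene AOX1 fell from 10.01 ± 0.14 over 8.74 ± 0.15 to 6.66 ± 0.40. Among the glycolate oxidase genes GLO5 rose by 4.45 (SE 0.26) from BCP, where it was under the reporter level, to TCP and GLO1 by 1.81 (SE 0.12) from UNM to BCP. The 1 glyoxalase gene measured, GLYI-11, rose by 2.73 (SE 0.13) and fell by 2.04 (SE 0.13).

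**Figure D5:**
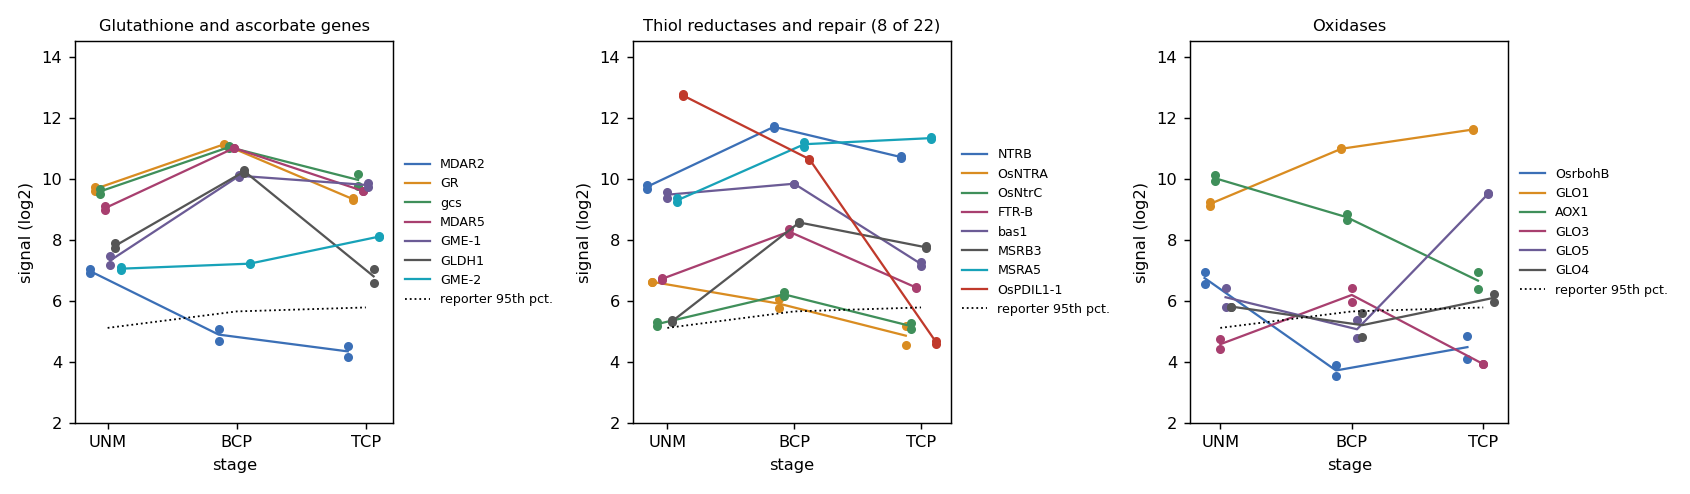
Log2 signal by stage for genes of glutathione and ascorbate, for 8 of the 22 thiol reductases and repair enzymes and for 6 oxidases, with a point for each array, a line through the stage means and a dotted line for the mean 95th percentile of the reporters. GR, gcs, MDAR5 and GLDH1 peak in BCP, OsPDIL1-1 drops to under 5 in TCP, and GLO5 is highest in TCP.

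TRX1, the histone methyltransferase, was at 10.95 ± 0.07, 11.28 ± 0.04 and 10.69 ± 0.04 in the 3 stages, with no call in any comparison. It was 1 of 16 genes that did not pass the F test with its minimum range of 1, whose ranges of stage means ran from 0.21 to 0.96. Since TRX1 had no call, leaving it out could not change the number of rises and falls among the redox genes.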

How the data were processed

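Each array's deposited column gives a log2 signal for every probe set, which the authors obtained by RMA according to the submitters' processing notes. The RMA version, and whether all arrays went through it jointly, was left unstated (not given in the sources used here). That table held 57381 probe sets, of which 123 Affymetrix controls and 64 reporters were left out of the tests. Genes came from the platform annotation and names from the RefSeq gene table, and gene order from the latter, and no coordinates or sequences are given.

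For the comparisons of stages, limma 3.58.1 (R 4.3.3) was fitted once to the 6 arrays with stage as factor (residual degrees of freedom 3, prior 3.87, no trend, no block), tested on simulated data. All tests were two-sided, and the 3 comparisons share arrays. The members, lists and tests were chosen with earlier results of these data known. Named are all genes of families of 12 or fewer, the 8 largest rises and falls per comparison whose arrays do not overlap, and the 3 genes of highest signal per family. Other genes were named after their values were seen. Replicate numbers did not pair the arrays: deviations from the stage means had correlations between -0.0718 and 0.0101.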

Additional observations from a re-analysis of the deposited data

How the results depend on the processing

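The counts of rises and falls stayed within 1.5 times the reported ones, in all 3 comparisons and across the stages, after a repeated quantile normalization, centring on the 75th percentile, an intensity trend, leaving out dim probe sets, counting all 85 probe sets or fitting only the 2 stages compared. With a minimum difference of 2, 6 genes rose and 6 fell from UNM to BCP, 1 rose and 12 fell from BCP to TCP, 3 rose and 14 fell from UNM to TCP, and 25 changed across the stages. The shares of all genes at this minimum were not counted, so these counts cannot be set against them. Scaling by the hybridization controls gave 1 rise and 46 falls from BCP to TCP and 3 and 49 from UNM to TCP. The medians of all genes were then -1.29 and -1.84, and the shares of them that rose or fell were not counted. Without shared probe sets 1 gene rose from BCP to TCP. Leaving out each array in turn gave 15 to 16 rises and 13 to 14 falls from UNM to BCP, 2 to 4 and 25 to 26 from BCP to TCP, 6 to 6 and 26 to 27 from UNM to TCP, and 41 to 44 changed genes. With the replicate number as a block 16 rose and 14 fell from UNM to BCP, 2 and 26 from BCP to TCP, 6 and 26 from UNM to TCP, and 42 changed; it altered only the call of GSTZ5 from UNM to BCP among the named genes.

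Of 78 calls of named genes 58 held under every alternative run at the minimum difference of 1, and 42 of the 78 reached a difference of 2. Changes of sign are given only for differences of named genes called on the deposited values or under the alternative. Differences called on neither were not listed. Scaling by the hybridization controls turned the sign from UNM to TCP for APX2 (-0.08), GRXS2 (-1.36), GSTU1 (-1.29), OsTrx08 (-1.16) and OsTrx25 (-0.29). From BCP to TCP it turned those of GRXS9 (-1.18), PRX112 (-1.22), PRX74 (-1.17) and catA (-1.08). Leaving out shared probe sets, which leaves another probe set to represent the gene, turned catA (0.53 from UNM to BCP, 0.16 from UNM to TCP) and sodA (0.40 from BCP to TCP and 0.40 from UNM to TCP). Why the control scaling differs from the others was not tested. Signals near the reporters limit the size of falls to BCP and TCP and of rises from such levels.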
